A study of Mus with 4 samples.

Results

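The acute phase genes of the liver outside the serum amyloid A family were followed in RNA-seq read counts of liver sinusoidal endothelial cells (LSECs), which form the porous wall of the hepatic sinusoids. The 7 genes were chosen by identifier, as Hp, Hpx, Orm1, Lcn2, Serpina3n, Itih4 and Cp, among 54532 genes counted. All mice had received carbon tetrachloride (CCl4), a hepatotoxin used to cause liver injury and fibrosis. Of the 4 libraries, 2 came from controls (CTL) and 2 from Pofut1 knockouts (P1KO), and the title of the series places the role of the gene in the endothelium. POFUT1 is the protein O-fucosyltransferase that modifies Notch receptors and other proteins with EGF-like repeats. The comparison of P1KO with CTL asks which LSEC genes differ when Pofut1 is lost. The sources used here do not give the driver of the deletion, the control genotype, the strain, age and sex of the mice, or the dose and duration of CCl4.

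Acute phase proteins are plasma proteins whose output changes within hours of injury or infection. Hepatocytes make most of them, under the control of interleukin-6 acting through STAT3 and of interleukin-1 acting through NF-kB and C/EBP factors. Several are not restricted to hepatocytes. Lcn2 is also a protein of neutrophil granules and is induced in many epithelia, and Cp and Serpina3n are made outside the liver as well.

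The libraries held 17464769 to 17918834 counts, and they are named here by their columns, CTL1 and CTL2 for the controls, KO1 and KO3 for the knockouts. KO3 was placed in the P1KO group by its name only, because the sample titles number the knockouts 1 and 2. The biological coefficient of variation was 3.23% within CTL and 12.1% within P1KO. Whether a group holds separate mice is not stated in the labels, and the p-values then measure only the spread between libraries, which may be technical. The samples are labelled as LSECs of the liver, but heart ventricles are named in the protocol for RNA extraction. Identifiers other than those of the 7 genes were not paired with symbols, so markers of LSECs, hepatocytes, neutrophils and heart muscle, and Pofut1 itself, were not analysed here.

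The 7 genes lie on 7 chromosomes, given here from RefSeq by symbol in assembly GRCm38.p6. Hp spans positions 109575128 to 109579172 of chromosome 8, Hpx 105591611 to 105600116 of chromosome 7, and Lcn2 32384637 to 32387739 of chromosome 2. None of these 3 overlaps another gene of that table. Orm1 lies at 63344556 to 63348163 of chromosome 4, where it overlaps the long non-coding gene Gm52743, and Orm3 and Orm2 follow 7905 and 14285 bases away. Serpina3n, at 104406646 to 104414334 of chromosome 12, sits 12386 bases from Serpina3m in a cluster with 14 protein-coding Serpina relatives within 500 kb. Itih4, at 30886476 to 30901986 of chromosome 14, has Itih3 and Itih1 as neighbours. Cp, at 19956933 to 20009750 of chromosome 3, overlaps the protein-coding gene Hps3. The sources used here do not say how reads of paralogs and overlapping genes were counted, so the values of Orm1, Serpina3n, Itih4 and Cp may include or miss reads of these neighbours.

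LSEC preparations of P1KO mice had more Hpx, Orm1, Serpina3n and Itih4 transcript and less Lcn2 transcript than those of CTL mice. Transcripts of Hp and Cp were not called different. Orm1 rose 3.37-fold, Hpx 2.25-fold, Itih4 2.18-fold and Serpina3n 1.85-fold, while Lcn2 was 2.44-fold lower in P1KO (adjusted p from 0.000255 to 0.0141 in the quasi-likelihood test of edgeR). All 7 genes passed the filter on low counts, and 5 of them were called at an adjusted p below 0.05, against 19.5% of the 15510 genes tested. In the direction of a rise, 4 of the 7 were called, against 9.68% of tested genes, and in the direction of a fall 1 of the 7, against 9.84%. With a filter of 5 CPM on the mean, which all 7 genes pass, 5 of the 7 were called, against 25.4% of 10978 genes (edgeR). The median log2 fold change of the 7 genes was 0.89, and that of all tested genes was -0.01. As the 7 genes were chosen with earlier results of these data known, these counts and medians describe them and are no independent test. In bulk RNA fewer cells of a type and less RNA per cell cannot be told apart. The part that RNA of hepatocytes or neutrophils in the preparations has in these values was not tested.

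**Figure D1:**
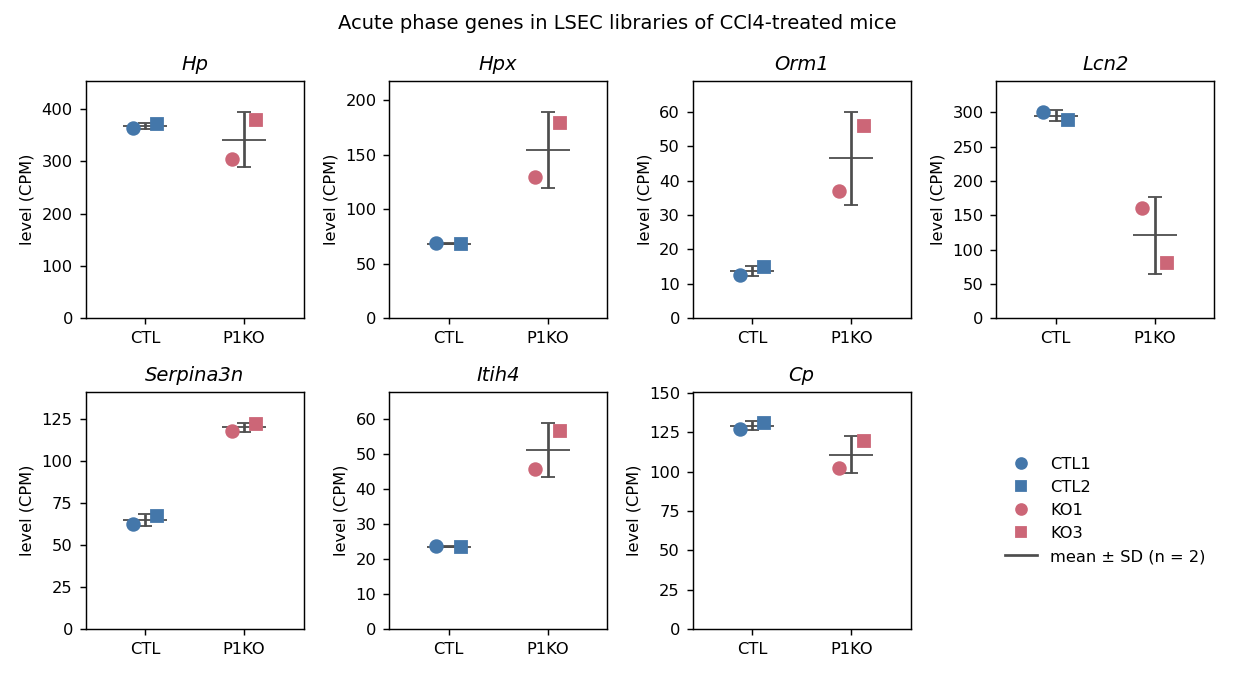
Level of each of the 7 genes in CPM (scaled with TMM, linear axis from 0) in the 2 CTL and 2 P1KO libraries, with the mean and SD of each group (n = 2). Hpx, Orm1, Serpina3n and Itih4 lie higher in both P1KO libraries than in both CTL libraries, Lcn2 lies lower in both, and Hp overlaps.

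Of the carriers of haemoglobin and haem, Hpx rose and Hp was not called. Haptoglobin, encoded by Hp (ENSMUSG00000031722), binds haemoglobin released from red cells. Hp had 6386 reads in CTL1 and 6627 in CTL2, against 5348 in KO1 and 6745 in KO3. Library KO1 was the lowest and KO3 the highest library, so the groups overlapped. Its level was 367 ± 5.19 CPM in CTL and 341 ± 53.1 CPM in P1KO (SD, n = 2 each), where CPM relate the reads of a gene to the total of its library, scaled with TMM. The log2 fold change of -0.11 ± 0.10 (SE) was not called (edgeR adjusted p = 0.490). Its 95% interval ran from -0.33 to 0.12, or from -20.5% to 8.61% as a change in level.

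Hemopexin, encoded by Hpx (ENSMUSG00000030895), takes up free haem and delivers it to the liver. Hpx had 1212 and 1218 reads in the CTL libraries, 2283 in KO1 and 3190 in KO3. Both P1KO libraries lay well above both CTL libraries, and KO3 was the highest. The level was 68.6 ± 0.589 CPM in CTL and 154 ± 35.0 CPM in P1KO (SD, n = 2 each). On the log2 scale the rise was 1.17 ± 0.14 (SE; edgeR adjusted p = 0.00161). KO3 exceeded KO1 by 1.38-fold (95% exact binomial interval 1.31 to 1.46, which covers counting error only), so the P1KO libraries differed by more than counting error. Of tested genes, 16.9% differed more between these libraries.

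The lipocalins moved in opposite directions. Orm1 (ENSMUSG00000039196) encodes orosomucoid, or alpha-1-acid glycoprotein, an abundant plasma lipocalin that binds drugs and lipids. Orm1 had 223 reads in CTL1 and 265 in CTL2, against 649 in KO1 and 997 in KO3. KO3 was the highest library and neither P1KO library came near the CTL values. The level was 13.8 ± 1.51 CPM in CTL and 46.4 ± 13.5 CPM in P1KO (SD, n = 2 each). This was the largest change among the 7 genes in the fit to all libraries, at 1.75 ± 0.20 (SE) on the log2 scale (edgeR adjusted p = 0.00137). Of all tested genes, 98.5% had a smaller change in absolute size.

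Lipocalin-2, encoded by Lcn2 (ENSMUSG00000026822), binds the iron-carrying siderophores of bacteria. Lcn2 had 5275 reads in CTL1 and 5162 in CTL2, against 2827 in KO1 and 1435 in KO3. Both P1KO libraries were lower than both CTL libraries, and KO3 was the lowest. The level fell from 295 ± 8.07 CPM in CTL to 121 ± 56.6 CPM in P1KO (SD, n = 2 each). The log2 fold change was -1.29 ± 0.26 (SE), the widest error among the 7 genes, with an edgeR adjusted p of 0.0141. The CTL mean was 1.83 times the level in KO1 and 3.66 times that in KO3. KO1 itself was 1.99-fold above KO3, and 4.95% of tested genes differed more between these libraries. The fall passed narrowly with DESeq2 (adjusted p = 0.0477) and did not pass without a filter on low counts (edgeR adjusted p = 0.0720), where 4 of the 7 genes and 6.24% of all genes were called.

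The genes of the protease inhibitor families both rose. Serpina3n (ENSMUSG00000021091) encodes a secreted serine protease inhibitor, a mouse relative of human alpha-1-antichymotrypsin. Serpina3n had 1092 reads in CTL1 and 1200 in CTL2, against 2077 in KO1 and 2171 in KO3. It was the steadiest of the changed genes between the P1KO libraries, with KO3 at 1.03 times KO1 (95% interval 0.973 to 1.10, exact binomial, counting error only). The level was 64.7 ± 3.53 CPM in CTL and 120 ± 2.79 CPM in P1KO (SD, n = 2 each). The log2 fold change of 0.89 ± 0.06 (SE) had the lowest edgeR adjusted p of the 7 genes, 0.000255.

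Itih4 (ENSMUSG00000021922) encodes a heavy chain of the inter-alpha-trypsin inhibitor family, a plasma protein cleaved by kallikrein. Itih4 had 414 and 416 reads in the CTL libraries, 803 in KO1 and 1007 in KO3. Both P1KO libraries were above the CTL pair, with KO3 the higher. The level was 23.4 ± 0.203 CPM in CTL and 51.1 ± 7.74 CPM in P1KO (SD, n = 2 each). The rise was 1.12 ± 0.11 (SE) on the log2 scale (edgeR adjusted p = 0.000864).

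Cp (ENSMUSG00000003617) encodes ceruloplasmin, a copper-containing ferroxidase that oxidises iron for loading onto transferrin. Cp had 2229 reads in CTL1 and 2341 in CTL2, against 1801 in KO1 and 2124 in KO3. This corresponds to 129 ± 2.91 CPM in CTL and 111 ± 12.0 CPM in P1KO (SD, n = 2 each). Both P1KO libraries were below both CTL libraries, but KO3 was close to them. The log2 fold change of -0.22 ± 0.08 (SE) did not pass (unadjusted p = 0.0285, adjusted p = 0.102, edgeR). For 6 of the 7 genes, all except Hp, the groups did not overlap, a pattern shown by 62.6% of all tested genes.

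**Figure D2:**
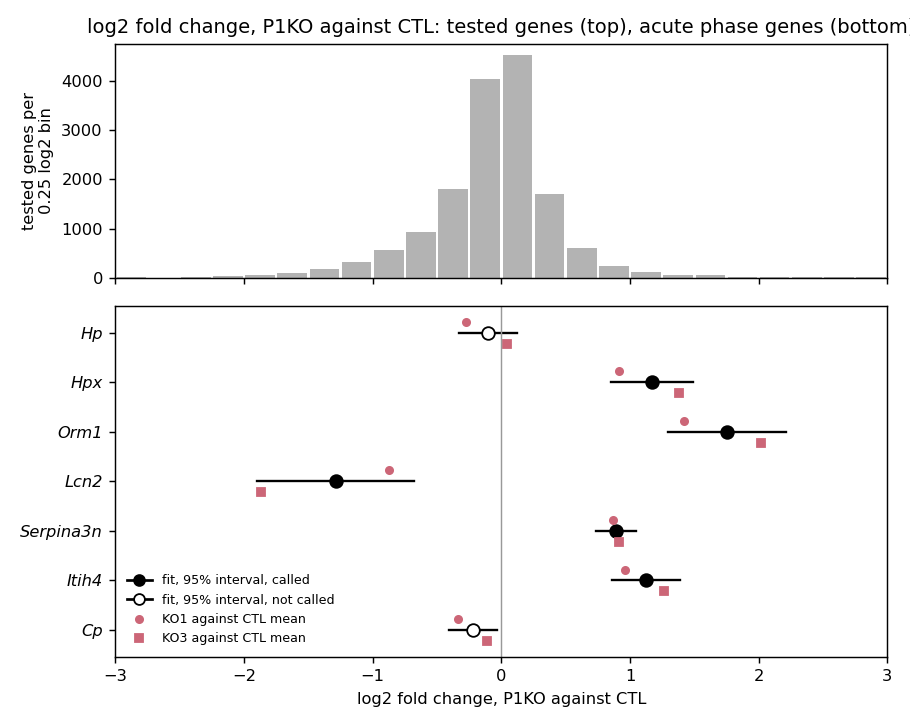
Distribution of log2 fold changes, P1KO against CTL, over the tested genes between -3 and 3 (top, genes per bin), and the log2 fold changes of the 7 genes on the same axis (bottom) with 95% intervals from edgeR and the value of each P1KO library against the CTL mean. Filled circles mark adjusted p below 0.05, and the fits run from -1.29 for Lcn2 to 1.75 for Orm1, with Hp and Cp near 0.

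The reads of the 7 genes together took a similar share of each library, whereas their makeup differed between the genotypes. They made up 0.0964% of all counts in CTL1 (95% interval 0.0949% to 0.0978%), 0.0968% in CTL2 (0.0953% to 0.0982%), 0.0881% in KO1 (0.0867% to 0.0895%) and 0.0997% in KO3 (0.0982% to 0.101%; exact binomial, counting error only). KO1 was thus the lowest and KO3 the highest, and the groups overlapped. Within these reads the part of Lcn2 was 31.3% in CTL1 (95% interval 30.6% to 32.0%), 30.0% in CTL2 (29.3% to 30.7%), 17.9% in KO1 (17.3% to 18.5%) and 8.12% in KO3 (7.72% to 8.53%; exact binomial). Hpx gave 7.20% and 7.07% of them in the CTL pair, against 14.5% and 18.1% in the P1KO pair. The part of Hp stayed between 33.9% and 38.5% in all 4 libraries. These are shares of reads and are not corrected for transcript length, so they do not rank the genes by number of transcripts.

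**Figure D3:**
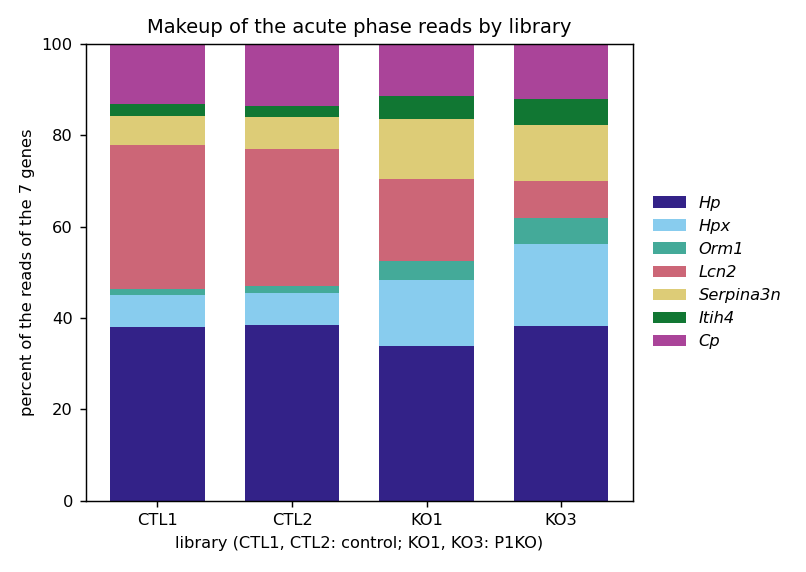
Percent of the reads of the 7 genes that fell on each gene, for each library (stacked bars). The part of Lcn2 is 31.3% and 30.0% in the CTL libraries against 17.9% and 8.12% in the P1KO libraries, and the parts of Hpx, Orm1, Serpina3n and Itih4 are larger in P1KO.

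Ratios of reads between 2 genes within a library need no scaling of libraries, and are given here as a description of some of the 21 possible pairs. The ratios of Hpx to Itih4 and of Hpx to Serpina3n overlapped between the genotypes. How often ratios between other tested genes overlap was not computed. Taken singly, 62.6% of tested genes did not overlap, so groups that are apart in a ratio are no particular trait of these genes. Hpx had 2.93 reads for each read of Itih4 in both CTL libraries, against 2.84 in KO1 and 3.17 in KO3. For each read of Serpina3n, Hpx had 1.11 and 1.02 reads in the CTL pair, 1.10 in KO1 and 1.47 in KO3, so that KO3 stood apart. The ratio of Hp to Cp was 2.86 in CTL1 and 2.83 in CTL2, against 2.97 and 3.18 in the P1KO pair, a difference of 1.08-fold on average. The groups did not overlap in this ratio, although the difference was small. Serpina3n to Itih4 was likewise apart by a small amount, at 2.64 and 2.88 in the CTL pair against 2.59 and 2.16 in the P1KO pair, which is 1.17-fold lower on average in P1KO.

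Other ratios differed more between the genotypes. For each read of Hpx, Hp had 5.27 reads in CTL1 and 5.44 in CTL2, but 2.34 in KO1 and 2.11 in KO3. For each read of Lcn2, Hp had 1.21 and 1.28 reads in the CTL pair, 1.89 in KO1 and 4.70 in KO3. The groups were apart in both ratios, and for Lcn2 the P1KO libraries were also far apart from each other. The widest shift was that of Orm1 to Lcn2, 8.57-fold on average, from 0.0423 and 0.0513 in the CTL pair to 0.230 in KO1 and 0.695 in KO3. The pairs described were chosen after their values were seen, and no test was run on them, since a permutation of 2 against 2 libraries cannot give a two-sided p below 0.333.

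**Figure D4:**
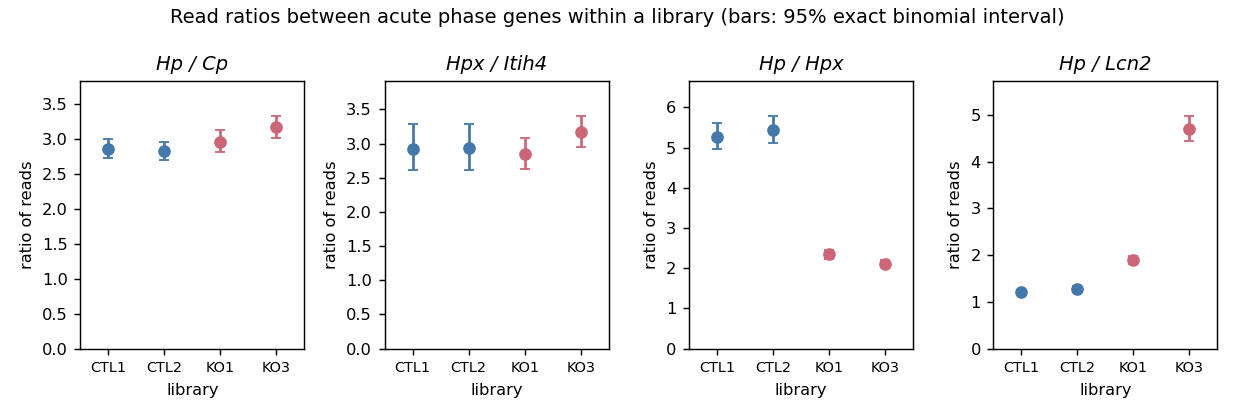
Ratio of reads between pairs of the 7 genes in each library (linear axis from 0), with 95% exact binomial intervals that cover counting error only. Hp to Cp lies between 2.83 and 3.18, slightly higher in both P1KO libraries, Hpx to Itih4 lies between 2.84 and 3.17 with overlapping groups, Hp to Hpx drops from 5.27 and 5.44 to 2.34 and 2.11, and Hp to Lcn2 is highest in KO3 at 4.70.

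The P1KO libraries differed from each other in the same order for most of the genes. KO3 exceeded KO1 for Hp, Hpx, Orm1, Itih4 and Cp by 1.17-fold (Cp) to 1.52-fold (Orm1), with 95% intervals above 1 (exact binomial), while for Serpina3n the difference lay within counting error. Larger differences between KO1 and KO3 were shown by 36.6% of tested genes for Cp and 12.0% for Orm1. Lcn2 alone among the 7 was lower in KO3. In the CTL pair the ratio of CTL2 to CTL1 lay between 0.962 (Lcn2) and 1.17 (Orm1). Hp had the highest mean CPM of the 7 genes. The tested genes of at least 5 CPM whose pattern over the 4 libraries was nearest to that of Hp were ENSMUSG00000009207 and ENSMUSG00000070699, at Euclidean distances of 0.02 and 0.03 in centred log2 CPM over 10973 genes compared. Neither was called (edgeR adjusted p = 0.704 and 0.749). Small distances follow from picking the nearest of so many genes over 4 libraries, and shared regulation with Hp was not tested.

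The rise of Serpina3n was called with each library left out in turn, whereas the calls of the other genes rested on the CTL pair. Without CTL1, Serpina3n had an adjusted p of 0.0491, Hpx 0.0964, Orm1 0.0921, Itih4 0.0703 and Lcn2 0.190 (edgeR). Without CTL2 these values were 0.0446 for Serpina3n, 0.103 for Hpx, 0.0777 for Orm1, 0.0713 for Itih4 and 0.178 for Lcn2 (edgeR). In these fits 1 of the 7 genes was called, against 0.832% of tested genes without CTL1 and 0.774% without CTL2. The log2 fold changes in these fits stayed close to those with all libraries, the widest move being that of Orm1, to 1.64 without CTL1 and 1.87 without CTL2. With the CTL libraries summed into 1 sample it was again 1 of the 7, Serpina3n, against 0.98% of tested genes. DESeq2 on all libraries called 5 of the 7, Hpx, Orm1, Lcn2, Serpina3n and Itih4, against 14.5% of tested genes. Against a minimum change of 1.5-fold, 4 of the 7 were called, Hpx, Orm1, Serpina3n and Itih4, against 1.74% of tested genes (edgeR glmTreat, adjusted p from 0.0117 to 0.0300).

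Leaving out a P1KO library moved the log2 fold changes more than leaving out a CTL library did, except for Serpina3n. That of Serpina3n was 0.83 without CTL1 and 0.94 without CTL2, against 0.91 without KO1 and 0.87 without KO3. Without KO1, 5 of the 7 genes were called, against 34.8% of tested genes. The log2 fold change of Lcn2 was then -1.87 and that of Orm1 2.02, and without KO3 they were -0.88 and 1.42. Hp was 0.04 without KO1 and -0.27 without KO3, so its sign depended on the library kept. Without KO3, Hp and Cp were called lower as well (edgeR adjusted p = 1.87e-13 and 3.87e-08), so that 7 of 7 genes were called, against 33.6% of tested genes. Both fits took their spread from the CTL pair alone.

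**Figure D5:**
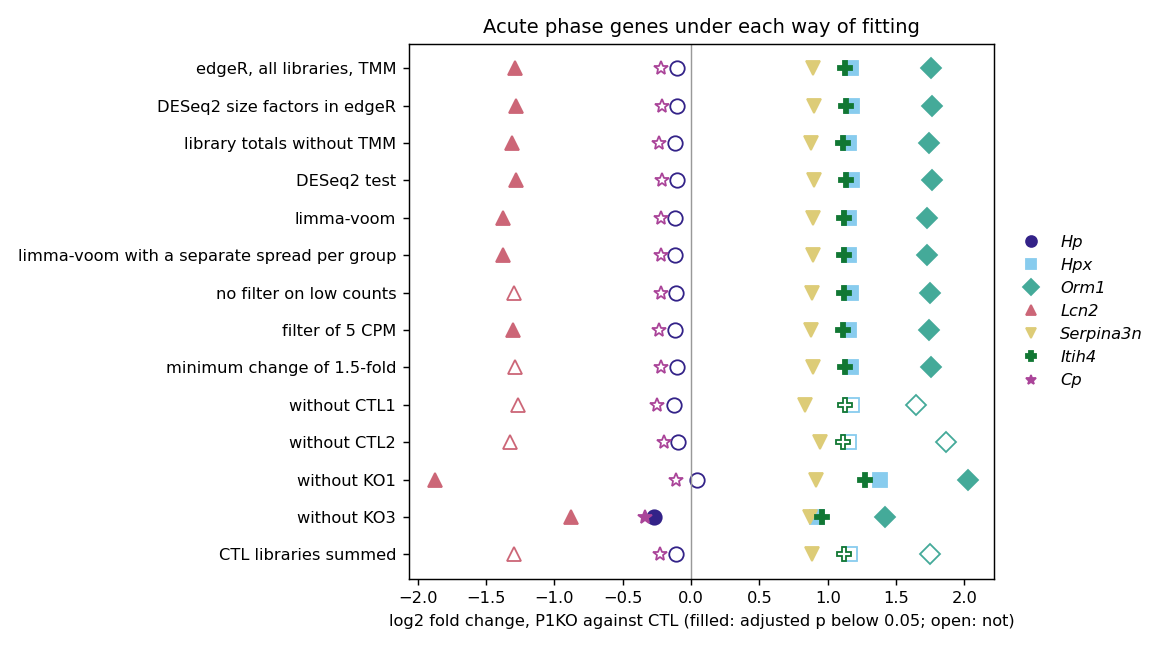
Log2 fold change, P1KO against CTL, of the 7 genes under each way of fitting (rows), filled where the adjusted p was below 0.05. The 5 genes called in the top row keep their direction in every row, Serpina3n is filled in all of them, and without CTL1, without CTL2 or with the CTL libraries summed the other 4 are open.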

How the data were processed

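The authors deposited 1 table of raw read counts for 54532 Ensembl mouse genes in 4 libraries, and 0 columns were left out. The submitters' processing notes list featureCounts 1.5.0-p3, HISAT2 2.0.5, fastp and CASAVA with build mm10. The sources used here do not give the annotation release, the strand setting or the handling of reads that match several genes. The symbols of the 7 genes come from the rule that chose them. The RefSeq table (GRCm38.p6, 49997 genes) gave their positions by symbol and matched 0 identifiers, so the other gene lists and cell type markers that had been listed were not read.

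Counts were tested with edgeR 4.0.16 (R 4.3.3): filterByExpr left 15510 genes, TMM scaled the libraries, and P1KO was set against CTL in a quasi-likelihood F-test without covariates. Benjamini-Hochberg adjustment ran over all tested genes, never over the 7 alone. The standard error is the fold change divided by the square root of F, and 95% intervals use it with the t distribution. Log2 CPM used a prior count of 2. The script was tested on simulated counts with 200 changed genes and the same spread in both groups, so the unequal spread of CTL and P1KO was not covered. Alternatives were DESeq2 1.42.0 (test, and its size factors in edgeR), limma-voom (limma 3.58.1) with a common or a separate spread per group, library totals, 2 other filters, a minimum change of 1.5-fold, each library left out and the CTL libraries summed. The 7 genes, the lists and the alternatives were chosen with earlier results of these data known. All 7 genes are named, and 2 genes were named for likeness to Hp.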

Additional observations from a re-analysis of the deposited data

How the results depend on the processing

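Library totals, DESeq2 size factors, DESeq2, limma-voom with either spread and a filter of 5 CPM kept the direction and the call of all 7 genes. Lcn2 was -1.29 on the log2 scale but not called without a filter on low counts (1633 genes called) or against a minimum change of 1.5-fold (270 genes called). The former tests 26155 genes in place of 15510 and also estimates the spread with the low-count genes kept. The latter asks for a larger change. Why Lcn2 lost its call without the filter was not tested. With the CTL libraries summed, 152 genes and 1 of the 7 (Serpina3n) were called, and Hpx (1.17), Orm1 (1.75), Lcn2 (-1.30) and Itih4 (1.12) were not, with fewer libraries and the spread of the P1KO pair. Leaving out 1 library gave 120 to 5391 called genes and 1 to 7 of the 7. The log2 fold changes then ranged from -0.27 to 0.0447 for Hp, which turned positive without KO1, 0.92 to 1.39 for Hpx, 1.42 to 2.02 for Orm1, -1.87 to -0.88 for Lcn2, 0.83 to 0.94 for Serpina3n, 0.96 to 1.27 for Itih4 and -0.33 to -0.11 for Cp. Where a group had 1 library left, its spread was assumed equal to that of the other group. No paired analysis was possible because column KO3 carries a number that no title has. Each gene had at least 223 reads in each library, and between the P1KO libraries 6 of the 7 genes differed by more than counting error, Serpina3n being the exception. For these 6 genes, from 4.95% (Lcn2) to 36.6% (Cp) of tested genes differed more between the P1KO libraries on the log2 scale.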
